A study of Mus musculus with 16 samples.

Results

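This account follows 46 genes of the ubiquitin-proteasome system in macrophages trained with beta-glucan. The genes are the protein-coding entries of the authors' comparison table whose symbol begins with Psm, with Usp, Ube2, Ube3 or Ube4, or with Uba, the Usp and Uba letters being followed by a number. They are 46 of the 3071 listed genes, of which 2580 are protein-coding. The table lists genes by the authors' adjusted p for beta-glucan against control, and 17.9% of the 17130 genes tested passed an adjusted p of 0.05. The 46 genes were therefore chosen by the same difference that is described here, and their levels and fold changes are given as a description, with no test. In the authors' deposited table the members nearest to the threshold were Psmc2 with an adjusted p of 0.0496, Usp10 with 0.0453 and Ube2l6 with 0.0440, and genes just beyond it are not analysed here.

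Marrow cells of aged mice, strain C57BL/6, were grown for 7 days with the macrophage growth factor M-CSF at 10 ng/mL, which gives bone marrow-derived macrophages. Cultures of the beta-glucan group then received 10 µg/mL of beta-glucan, a cell wall polysaccharide obtained here from the yeast Candida albicans, and control cultures received PBS, each for 24 hours. A rest of 7 days followed before RNA was sequenced in 8 beta-glucan and 8 control libraries, so the design asks what is left of the stimulus after that rest. No label gives the age in numbers, or says which libraries came from separate mice.

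Proteins are marked for destruction by chains of the small protein ubiquitin. An E1 enzyme activates ubiquitin, an E2 enzyme carries it, and an E3 ligase attaches it to a substrate, while deubiquitinases remove it again. The 26S proteasome then unfolds and cuts the tagged protein. Its barrel, the 20S core, is built from alpha (Psma) and beta (Psmb) subunits, of which 3 beta subunits are proteases. The 19S particle caps the barrel, with a ring of ATPases (Psmc) that unfold the substrate and non-ATPase subunits (Psmd) that bind and trim ubiquitin chains. Other caps, the Psme activators, open the barrel without ubiquitin. In macrophages the system also cuts peptides for presentation to T cells and degrades inhibitors of inflammatory signalling.

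The listed genes were spread unevenly over these roles. The 19S particle contributed 16 of the 21 coding genes whose symbols begin with Psmc or Psmd in GENCODE M21 (76.2%). The 20S core contributed 5 of 19 (26.3%), and the activators with the inhibitor Psmf1 contributed 3 of 6. None of the 4 Psmg genes, which encode chaperones of core assembly, was listed. Among the enzymes, 14 of 56 Usp genes (25.0%), 7 of 37 Ube2 genes (18.9%) and 1 of 8 Uba genes (12.5%) were listed, and none of the 5 Ube3 and Ube4 genes was. How many of the annotated genes were expressed highly enough to be tested is not known from the table, so these shares have no tested denominator. The names take in 4 genes that are no active deubiquitinase or no subunit. Usp6nl encodes a GTPase-activating protein, Usp39 encodes an inactive relative that acts in splicing, and Psmd5 and Psmd9 encode assembly chaperones of the 19S base and not subunits of the finished particle.

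Promoter windows are shown for 4 members that carry the results: Psmb5, the 20S gene with the largest fold change, Psmd8, the largest among all proteasome genes, Psmd12, which holds an antioxidant response core and an ETS motif together, and Usp11, a deubiquitinase gene listed lower. Each is the 250 bases before the RefSeq transcription start in the GRCm38.p6 assembly, read 5′ to 3′ on the strand of the gene. Capitals mark matches, on either strand, to the antioxidant response core TGACNNNGC, the GC box GGGCGG, the ETS motif CCGGAAG or the NF-Y box CCAAT. The Psmb5 window is at chr14:54617996-54618245 on the minus strand and holds an antioxidant response core. The Psmd8 window is at chr7:29180674-29180923 on the minus strand and holds a GC box. The Psmd12 window is at chr11:107479278-107479527 on the plus strand and holds an antioxidant response core, 2 GC boxes and an ETS motif. The Usp11 window is at chrX:20703659-20703908 on the plus strand and holds 2 NF-Y boxes and an ETS motif.
Psmb5: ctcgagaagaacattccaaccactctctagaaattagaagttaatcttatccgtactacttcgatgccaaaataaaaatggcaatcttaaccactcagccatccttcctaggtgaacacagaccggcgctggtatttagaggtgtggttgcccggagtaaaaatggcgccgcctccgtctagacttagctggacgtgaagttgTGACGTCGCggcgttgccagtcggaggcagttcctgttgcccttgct
Psmd8: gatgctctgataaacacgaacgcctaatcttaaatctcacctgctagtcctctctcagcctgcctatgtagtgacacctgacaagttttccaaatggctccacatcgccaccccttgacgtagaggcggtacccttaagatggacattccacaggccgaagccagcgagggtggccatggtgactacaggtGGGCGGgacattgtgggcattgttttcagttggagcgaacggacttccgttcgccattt
Psmd12: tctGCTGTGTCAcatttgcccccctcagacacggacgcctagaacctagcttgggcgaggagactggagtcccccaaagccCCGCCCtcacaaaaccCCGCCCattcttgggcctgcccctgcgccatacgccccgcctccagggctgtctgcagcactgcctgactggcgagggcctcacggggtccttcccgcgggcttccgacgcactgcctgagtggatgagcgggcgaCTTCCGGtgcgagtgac
Usp11: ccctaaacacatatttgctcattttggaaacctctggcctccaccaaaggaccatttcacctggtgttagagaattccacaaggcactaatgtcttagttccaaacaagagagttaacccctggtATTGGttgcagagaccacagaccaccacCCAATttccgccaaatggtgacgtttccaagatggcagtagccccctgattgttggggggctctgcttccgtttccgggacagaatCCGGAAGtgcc

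Motif matches were counted over the whole RefSeq windows of 250 bases before and 50 bases after the start, which were found for 20 of the 24 proteasome genes and 18 of the 22 enzyme genes. The ETS motif stood in the windows of 11 of 20 proteasome genes (55.0%), among them 9 of the 14 19S genes with a window (64.3%). It stood in 2 of 18 enzyme genes (11.1%), in 19.2% of 2051 listed protein-coding genes and in 9.9% of all 27025 genes of the sequence table. The proteasome genes with it were Psma6, Psmc1, Psmc2, Psmc6, Psmd2, Psmd4, Psmd6, Psmd11, Psmd12, Psmd13 and Psme3, and the enzyme genes were Usp11 and Usp19. The antioxidant response core stood in 5 proteasome genes, namely Psmb5, Psmb6, Psmc6, Psmd9 and Psmd12 (25.0%), and in 3 enzyme genes (16.7%). Those 3 were Usp10, Usp32 and Usp34, so the share among the 12 Usp genes with a window was 25.0% too. It stood in 16.2% of listed protein-coding genes and in 14.0% of all genes. The NF-Y box stood in 30.0% of proteasome genes and 16.7% of enzyme genes. Both shares lay below the 39.8% of listed protein-coding genes and the 41.1% of all genes. GC boxes were found in 60.0% of proteasome genes, 66.7% of enzyme genes and 38.2% of all genes, but in 68.9% of listed protein-coding genes. The E-box CACGTG (10.0% of proteasome genes, 8.1% of all genes) and the TATA motif TATAAA (5.0% and 15.7%) were searched as well. The interferon response element, a pair of GAAA blocks with 2 bases between them, was found in 10.0% of proteasome genes and 4.0% of all genes, and the NRF1 palindrome in 0 of the 20 proteasome genes and 1.1% of all genes. These are matches of letters and say nothing on binding.

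All 24 listed proteasome genes were higher in beta-glucan than in control libraries, by log2 fold changes between 0.23 and 0.65 (median 0.36). The 22 enzyme genes were divided, 11 higher and 11 lower, between -1.09 and 0.59 with a median of 0.02. Over all 2738 listed genes that passed the count filter the median was -0.41 and 39.0% were higher. In edgeR's quasi-likelihood test, adjusted over all 17130 genes, 18 proteasome genes were called higher at an adjusted p under 0.05 and 0 lower, and 5 enzyme genes were called higher and 8 lower. The same call was reached by 25.9% of the filtered listed genes in the higher direction and by 42.8% in the lower direction. Those members had already passed the authors' test on the same libraries, so nothing is read from these counts. The direction of every member stayed the same under the other scalings, filters and left-out libraries that were tried.

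**Figure D1:**
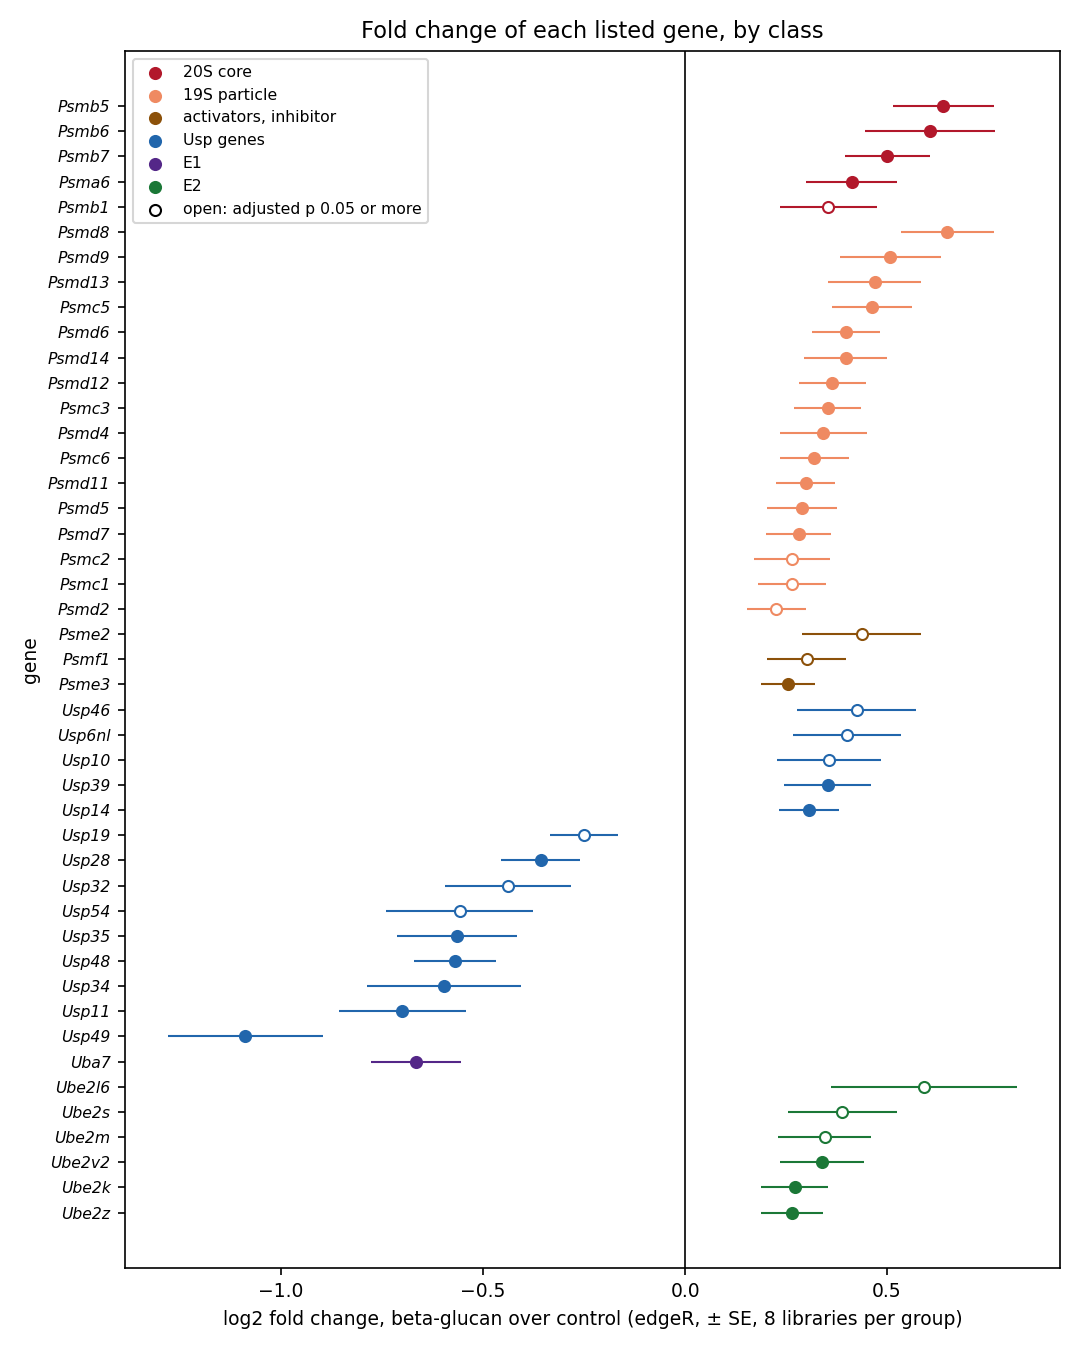
Log2 fold change of beta-glucan over control for 45 of the 46 genes (horizontal axis, edgeR, bars are ± SE, 8 libraries per group), grouped by class; filled points have an edgeR adjusted p under 0.05. All 24 proteasome genes lie between 0.23 and 0.65, whereas the Usp genes lie on both sides of 0, down to -1.09 for Usp49.

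The 20S core was represented by 4 beta subunits and 1 alpha subunit, and the 3 proteolytic beta subunits were all among them. Psmb5, the subunit with the chymotrypsin-like activity (chr14:54614119-54618022, mm10), had normalized counts with a lowest value of 1403, a median of 1722 and a highest of 1927 in beta-glucan libraries, against 824, 1055 and 1727 in control libraries. Its log2 fold change was 0.64 ± 0.13 (SE). The groups overlapped only through control 12, which held the 1727 while the next highest control had 1143. Psmb6, the caspase-like subunit (chr11:70525367-70527858), had 2408, 3116 and 3558 in beta-glucan libraries, against 1385, 1798 and 3579 in control libraries, a log2 fold change of 0.61 ± 0.16. Control 12 was again the highest control, above all beta-glucan libraries, and control 13 with 2480 came next. Psmb7, the trypsin-like subunit, completed the set with a log2 fold change of 0.50 ± 0.10 and 7 of 8 beta-glucan libraries above the highest control.

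The other core genes encode structural subunits. Psma6, an alpha subunit of the outer ring, had 1546, 1805 and 2058 normalized counts (lowest, median, highest) in beta-glucan libraries, against 940, 1311 and 1854 in control libraries. Its log2 fold change was 0.41 ± 0.11, and 4 beta-glucan libraries lay above the highest control, which was control 12. Psmb1, a beta subunit without a protease site, had a log2 fold change of 0.35 ± 0.12, and its highest value of all 16 libraries was in control 12. None of the interferon-induced subunits Psmb8, Psmb9 and Psmb10, which replace the standard proteases in the immunoproteasome, was listed.

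The 19S ATPase ring had 5 listed genes, with log2 fold changes of 0.26 to 0.46. Psmc5, the largest of them, had 1497, 1839 and 2095 normalized counts in beta-glucan libraries, against 1129, 1277 and 1768 in control libraries, a log2 fold change of 0.46 ± 0.10. The groups overlapped through control 12, and the next highest control had 1430. Psmc3 had 2577, 3102 and 3569 in beta-glucan libraries, against 2139, 2378 and 2642 in control libraries (log2 fold change 0.35 ± 0.08), with 6 beta-glucan libraries above all controls. Psmc6, Psmc1 and Psmc2, the other ATPases listed, had log2 fold changes of 0.32, 0.26 and 0.26.

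The non-ATPase side of the 19S particle had 11 listed genes, with log2 fold changes of 0.23 to 0.65. Psmd8, a lid subunit (chr7:29174188-29180701), had 5160, 6369 and 7184 normalized counts in beta-glucan libraries, against 3043, 3790 and 5477 in control libraries. Its log2 fold change of 0.65 ± 0.12 was the largest among the proteasome genes, and 6 beta-glucan libraries lay above the highest control, control 12. Psmd9, an assembly chaperone of the ATPase ring, had 474, 551 and 656 in beta-glucan libraries, against 311, 357 and 599 in control libraries (log2 fold change 0.51 ± 0.13). Here 7 of 8 controls lay below the lowest beta-glucan library, and control 12 was the exception.

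The remaining Psmd genes spanned the functions of the lid and base. Psmd14, the deubiquitinase built into the lid, had a log2 fold change of 0.40 ± 0.10, and its inactive partner Psmd7 had 0.28 ± 0.08. The ubiquitin receptor Psmd4 had 0.34 ± 0.11. The scaffold subunits of the lid, Psmd6, Psmd11, Psmd12 and Psmd13, had 0.40, 0.30, 0.37 and 0.47. Psmd5, the second listed assembly chaperone, had 0.29. Psmd2, the large base subunit on which shuttle proteins and Usp14 dock, had the smallest fold change of the 24 genes at 0.23 ± 0.07.

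Among the activators, Psme2, the beta subunit of the interferon-induced PA28 cap, had 1238, 1621 and 1893 normalized counts in beta-glucan libraries, against 799, 1065 and 1936 in control libraries. Its log2 fold change was 0.44 ± 0.15, and the highest of the 16 values was in control 12. Psme3, the nuclear PA28 gamma subunit, had 1685, 1804 and 2002 in beta-glucan libraries, against 1290, 1543 and 1612 in control libraries, a log2 fold change of 0.25 ± 0.07. It was the 1 proteasome gene whose groups did not overlap. Psmf1, an inhibitor of the 20S core that also binds it during assembly, had 652, 736 and 852 in beta-glucan libraries, against 482, 624 and 694 in control libraries, a log2 fold change of 0.30 ± 0.10.

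**Figure D2:**
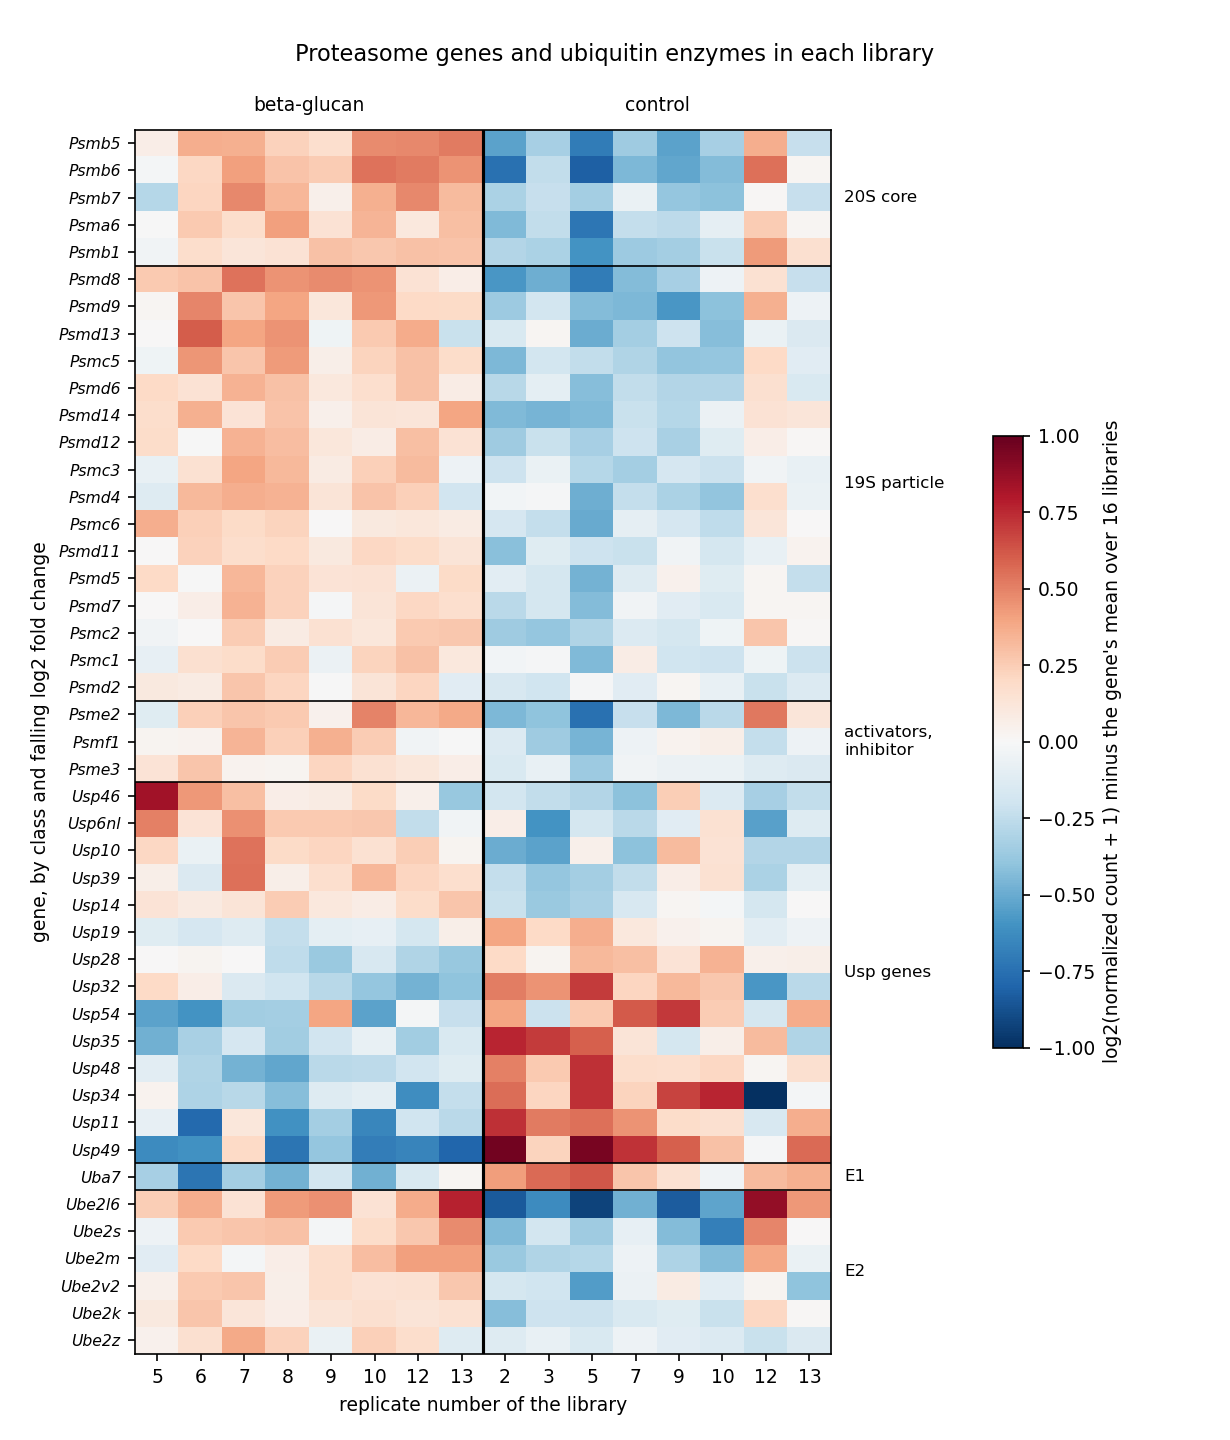
Level of 45 of the 46 genes (rows, by class and falling fold change) in each library (columns, numbered by replicate, beta-glucan left and control right), as log2(normalized count + 1) minus the gene's mean over the 16 libraries; colours end at -1 and 1. Control 12 carries the colours of the beta-glucan libraries in most 20S genes and in Ube2l6, Usp32 and Usp34.

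The listed Usp genes showed both directions, 5 higher and 9 lower, with a median log2 fold change of -0.40. The lower genes encode nuclear, endosomal and cytosolic deubiquitinases. Usp48, a nuclear enzyme that acts on histone H2A (chr4:137593755-137658537), had 1178, 1402 and 1564 normalized counts in beta-glucan libraries, against 1709, 1925 and 2802 in control libraries, a log2 fold change of -0.57 ± 0.10. Usp28, known for stabilising Myc, had 222, 250 and 294 in beta-glucan libraries, against 295, 325 and 368 in control libraries (-0.36 ± 0.10). In both genes every beta-glucan library lay below every control, and they were chosen for this after their values were seen. Groups did not overlap in 4 of the 46 members, 2 in each direction, whereas among the 3071 listed genes this held for 2.67% in the higher and 4.85% in the lower direction.

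Usp11, a nuclear deubiquitinase with a part in DNA repair (chrX:20703906-20720539), had 73.5, 103 and 137 normalized counts in beta-glucan libraries, against 113, 169 and 211 in control libraries. Its log2 fold change was -0.70 ± 0.16, and 7 of 8 controls lay above the highest beta-glucan library. Usp34, a very large deubiquitinase of the Wnt pathway (chr11:23306895-23490560), had 492, 634 and 779 in beta-glucan libraries, against 358, 1003 and 1284 in control libraries (-0.60 ± 0.19). Its lowest value of all 16 libraries was in control 12. Usp49, a histone H2B deubiquitinase, had the largest fold change of the 46 genes, -1.09 ± 0.19, at low levels of 41.1, 45.8 and 83.0 in beta-glucan libraries, against 71.3, 108 and 141 in control libraries. Its mean lay under the count of 100 set for genes described in full and was chosen after its values were seen. Usp35, Usp54, Usp32 and Usp19, an enzyme anchored in the endoplasmic reticulum, had log2 fold changes of -0.57, -0.56, -0.44 and -0.25.

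The 5 Usp genes listed higher included Usp14, the deubiquitinase that docks on the 19S particle and trims chains there. Usp14 had 1708, 1779 and 1967 normalized counts in beta-glucan libraries, against 1255, 1447 and 1650 in control libraries, a log2 fold change of 0.31 ± 0.07 with no overlap between the groups. Uchl5, the other deubiquitinase that joins the 19S particle, has another name pattern and is no member, but it was listed too. Its normalized count was 749.9 ± 131 in beta-glucan and 498 ± 76.4 in control libraries (SD, n = 8 each, log2 fold change 0.59 ± 0.12). With Psmd14, all 3 deubiquitinases known to work on the proteasome were thus listed as higher.

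Of the other higher Usp genes, Usp10 is a cytosolic deubiquitinase known for acting on p53. It had 615, 739 and 937 in beta-glucan libraries, against 444, 526 and 803 in control libraries (0.36 ± 0.13). Usp46, active with the cofactor WDR48, had 168, 241 and 394 in beta-glucan libraries, against 165, 185 and 261 in control libraries (0.42 ± 0.15). The groups overlapped widely in both. The splicing protein Usp39 had 578, 718 and 940 in beta-glucan libraries, against 489, 541 and 712 in control libraries (0.35 ± 0.11). The GTPase-activating protein Usp6nl had 192, 274 and 324 in beta-glucan libraries, against 150.3, 206 and 254 in control libraries (0.40 ± 0.13). Without Usp6nl the median of the Usp genes was -0.44.

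The only listed E1 gene was Uba7, which activates the ubiquitin-like protein ISG15 and not ubiquitin (chr9:107975505-107984060). It had 547, 718 and 918 normalized counts in beta-glucan libraries, against 884, 1145 and 1397 in control libraries, a log2 fold change of -0.67 ± 0.11. A single library of each group reached into the range of the other. Ube2l6, the E2 enzyme of the same ISG15 pathway, stood on the other side of 0. It had 828, 968 and 1278 in beta-glucan libraries, against 395, 503 and 1380 in control libraries, a log2 fold change of 0.59 ± 0.23. Its spread was the widest of the E2 genes, with control 12 above all beta-glucan libraries and control 13 at 1011.

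The other E2 genes described serve ubiquitin or NEDD8. Ube2s, which extends chains for the anaphase-promoting complex, had 1095, 1362 and 1568 in beta-glucan libraries, against 706, 941 and 1589 in control libraries (0.39 ± 0.14), and its highest value was again in control 12. Ube2m, the E2 of NEDD8, had 0.35 ± 0.12, and Ube2v2, a catalytically inactive partner in K63-linked chains, had 0.34 ± 0.10. Ube2k, which builds K48-linked chains, had 0.27 ± 0.08, and Ube2z, which works with the second ubiquitin E1, had 0.26 ± 0.08.

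Compared per kilobase of gene, the classes sat at different levels. The median FPKM over the 24 proteasome genes was 37.6 in beta-glucan and 29.5 in control libraries, with control means from 3.05 for Psmd9 to 90.5 for Psmd2. The 9 Usp genes listed lower had a median FPKM of 2.34 in beta-glucan and 3.14 in control libraries, and the 7 E2 genes 20.5 and 18.0. Summed over the 24 genes, proteasome transcripts made up 47397 to 56759 normalized counts in beta-glucan libraries (median 53733), against 34422 to 49003 in control libraries (median 39315). The ranges overlapped through control 12, at 49003, and the next highest control was control 13 at 43099.7. No label sets control 12 apart, and the summed genes were listed for this contrast, so no separation of the groups is read from this. The classes also differed in spread. The median coefficient of variation over the 5 core genes was 11.1% in beta-glucan and 24.9% in control libraries. Over the 16 19S genes it was 8.74% and 12.4%, and over all filtered listed genes it was 16.2% and 22.3%. A smaller spread in beta-glucan libraries is therefore not particular to the proteasome genes.

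The class score of a library is the mean, over the genes of a class, of log2(normalized count + 1) minus the gene's mean over the 16 libraries. The 20S score ran from -0.06 to 0.40 in beta-glucan libraries (median 0.30), against -0.64 to 0.32 in control libraries (median -0.30). Beta-glucan 5 held the lowest beta-glucan value and control 12 the highest control value, and the second highest control was at -0.05. The 19S score ran from 0.07 to 0.30 in beta-glucan libraries, against -0.39 to 0.08 in control libraries, with the same libraries at the inner ends. Control 12 was the highest control in 17 of the 24 proteasome genes, and control 5 was the lowest in 15. The 9 Usp genes listed lower mirrored this: their score ran from -0.41 to -0.14 in beta-glucan libraries, against -0.19 to 0.58 in control libraries, where control 12 was the lowest and control 5 the highest. Control 12 was the lowest control in 6 of these 9 genes.

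**Figure D3:**
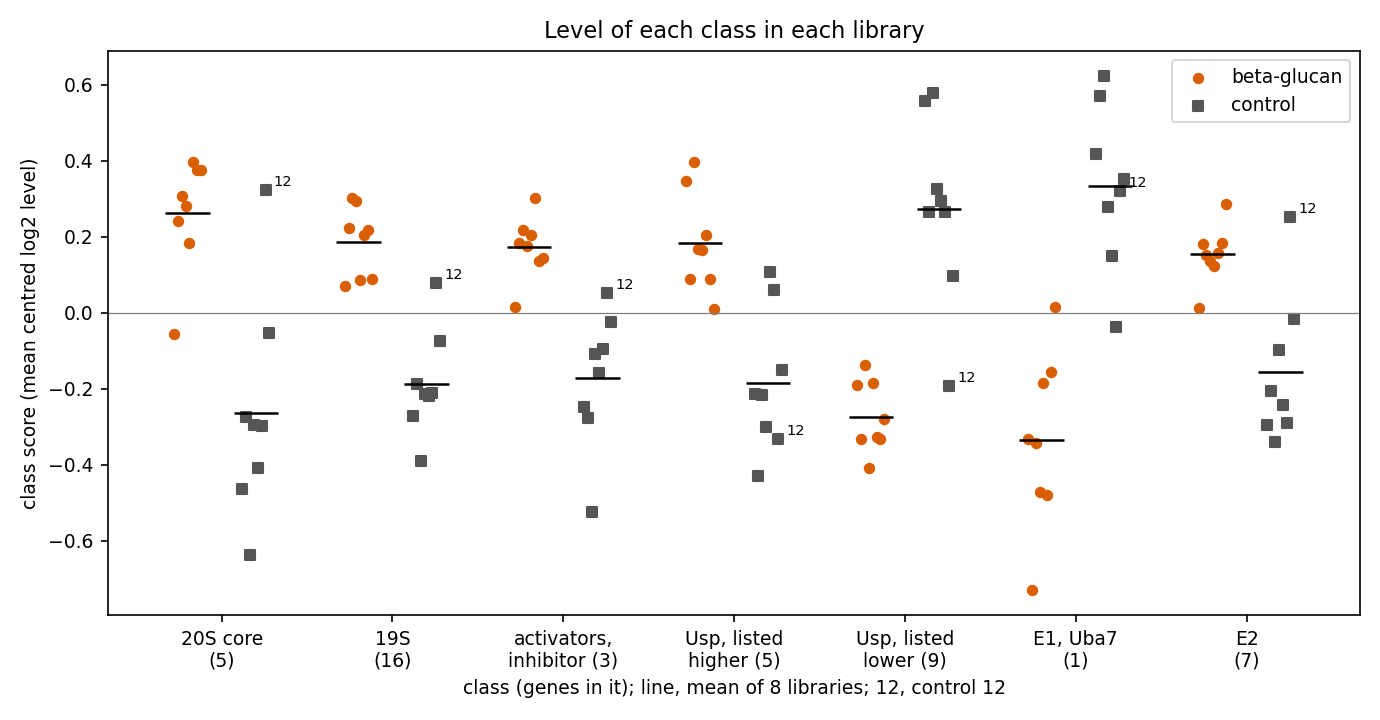
Class score of each library (vertical axis, mean centred log2 level) for 7 groups of genes, beta-glucan left of control in each; the line is the mean of 8 libraries and the number 12 marks control 12. Control 12 lies among the beta-glucan libraries for the 20S core (0.32), the E2 genes (0.25) and the Usp genes listed lower (-0.19). For the 19S genes (0.08) and the activators with the inhibitor (0.05) it lies between the lowest beta-glucan library and the others. It lies outside the beta-glucan range for the Usp genes listed higher and for the E1 gene Uba7.

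Gene length moved with the direction of the listed genes. Among the other listed genes that passed the filter, 49.7% of those up to 1500 bases were higher, 60.8% between 1500 and 3000 bases, 48.6% up to 5000 bases, 33.0% up to 7000, 18.6% up to 9000 and 8.64% beyond. Proteasome genes were short, with a median of 2885 bases, and the 9 Usp genes listed lower were long, with a median of 7680. Between 1500 and 3000 bases the median log2 fold change was 0.36 in 10 proteasome genes, close to the 0.32 of 574 other listed genes. Up to 1500 bases 3 proteasome genes had 0.46, against -0.52, and up to 5000 bases 6 had 0.41, against -0.27. Up to 7000 bases 3 had 0.30, against -0.42, and up to 9000 bases 2 had 0.40, against -0.47. All 11 proteasome genes over 3000 bases were higher, the longest having 7248 bases. Of 1935 other listed genes over 3000 bases 30.7% were higher. These others reach greater lengths, with 463 of them over 9000 bases, so the 2 sets are not matched in length. The Usp genes listed higher were as long as the others, with a median of 7841 bases. With the length trend within each library removed, the 24 proteasome genes had log2 fold changes from 0.09 for Psmc1 to 0.81 for Psmb5, with a median of 0.30. Of the 24, 11 then had an edgeR adjusted p under 0.05, where 17.0% of all filtered listed genes were called higher and 36.2% lower. The 24 genes had been listed as higher on these same libraries, so nothing on length as a cause is read from this. Among the lower Usp genes the removal moved Usp34 most, to -0.24, and Usp48 to -0.40. Usp49, Usp28, Usp32, Usp54 and Usp19 then had -0.95, -0.34, -0.33, -0.41 and -0.17, whereas Usp11 and Usp35 had -0.76 and -0.58.

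**Figure D4:**
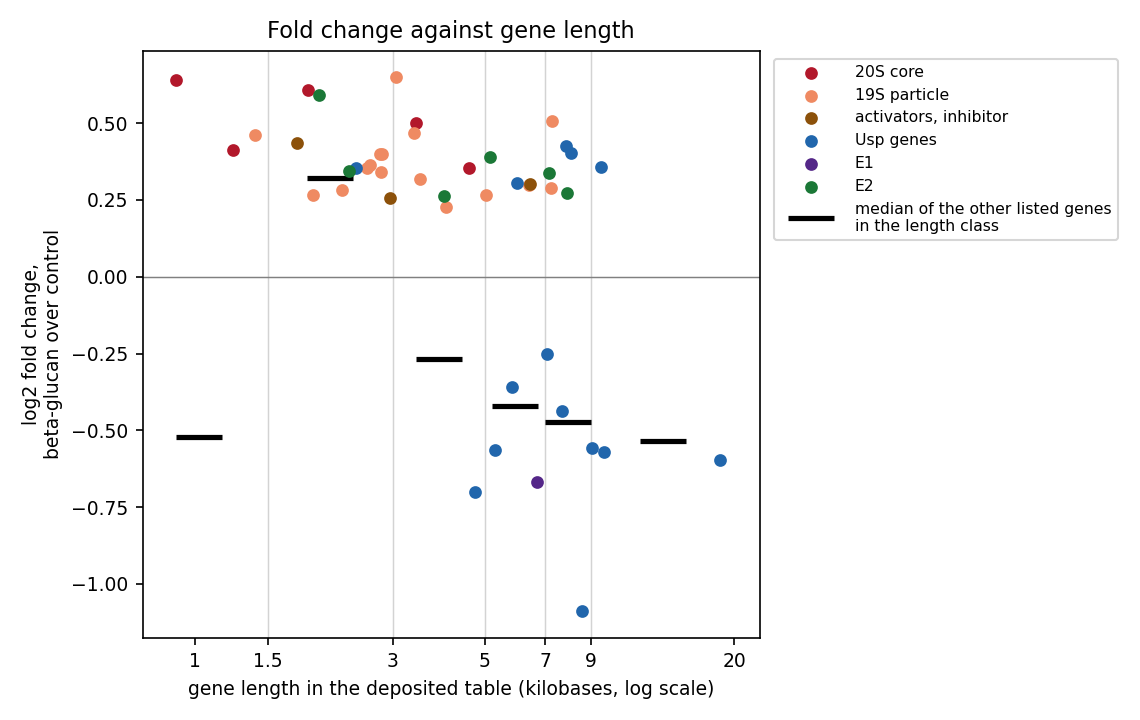
Log2 fold change of beta-glucan over control (vertical axis) against gene length (kilobases, log scale) for 45 of the 46 genes; black bars are the median of the other listed genes in each length class, bounded by the grey lines. Proteasome genes lie above 0 in each of the 5 length classes that hold any, up to 7248 bases, while the bars lie at 0.32 for genes of 1500 to 3000 bases and below 0 in every other length class, down to -0.54 beyond 9000 bases.

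The same length measure differed between libraries. The median centred level of the 757 other listed genes of up to 3000 bases, minus that of the 463 over 9000 bases, ran from 0.01 to 0.49 in beta-glucan libraries, against -0.88 to 0.49 in control libraries. These genes too were listed for this contrast. Control 12 had the highest value of all libraries and control 5 the lowest. At nearly equal values of 0.49 the proteasome score was 0.24 in beta-glucan 12 and 0.28 in beta-glucan 8, against 0.13 in control 12. At values near 0 it was 0.04 in beta-glucan 5 (length value 0.01), against -0.06 in control 13 (0.07). These are single libraries, and the scored proteasome genes were themselves listed for this contrast, so nothing on length is read from these values. What part of the differences goes with length was not tested.

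**Figure D5:**
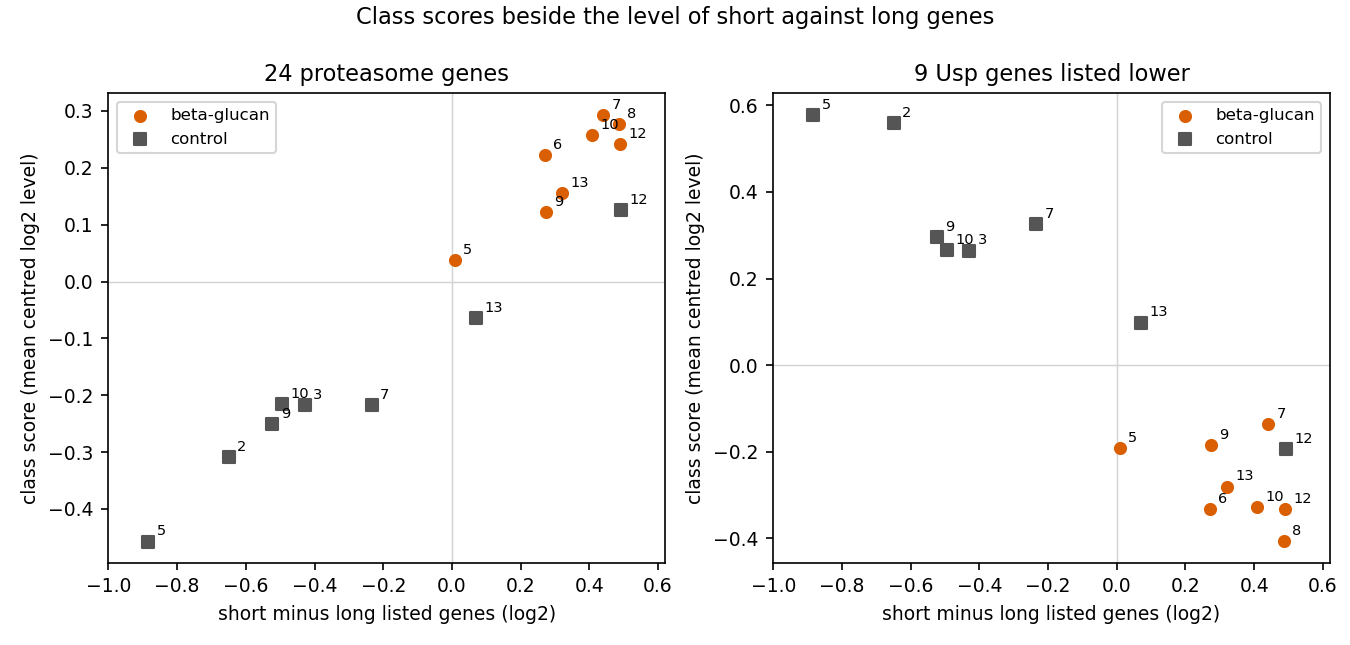
Score of the 24 proteasome genes (left) and of the 9 Usp genes listed lower (right) in each library, against the level of short minus long listed genes (log2); numbers are replicates. In both groups libraries with a higher level of short relative to long listed genes tend to have higher proteasome scores, and control 12 lies beside the beta-glucan libraries on the horizontal axis.

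Other genes of the pathway were listed in different numbers by role. None of the 4 genes of free ubiquitin was listed. Of 17 regulators and assembly factors of the proteasome, 3 were listed and all were higher: Uchl5, the nuclear import factor Akirin2 (0.31) and the thioredoxin-like subunit Txnl1 (0.26). Of 19 genes of the p97 unfoldase and of shuttle receptors, 5 were listed and all were higher. Of these 4 were called, against 25.9% of the filtered listed genes in that direction, all of which had been selected by the authors' test. Ubxn1, a p97 cofactor, had a log2 fold change of 0.42 and the autophagy receptor Sqstm1 had 0.31. Among the ligase lists the balance differed, and of all filtered listed genes 39.0% were higher. Of 32 HECT and RING-between-RING ligases 9 were listed, 8 of them lower, with a median log2 fold change of -0.43. The giant ligase Huwe1 had normalized counts of 2059 ± 272 in beta-glucan and 3441 ± 1037 in control libraries (SD, n = 8 each, log2 fold change -0.74 ± 0.16), and Herc1 had -0.84 ± 0.17. These lower ligases had a median gene length of 8729 bases together with the 1 higher gene of the list, Rnf14.

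Of 45 other RING and UBR ligases, 10 were listed, 7 lower and 3 higher, led by Mdm4, a regulator of p53, with -1.14 ± 0.20. Of 34 cullin-RING genes 5 were listed. Cul9 was lower (-0.54 ± 0.11), whereas the SCF adaptor Skp1a, the NEDD8 activating subunit Nae1 and the signalosome subunits Cops6 and Cops7a were higher, by 0.24 to 0.45. Of 31 deubiquitinases of other families 3 were listed: Mysm1, a histone H2A enzyme, was lower (-0.64 ± 0.15), and Otud6b and Brcc3 were higher (0.28 each). The authors' deposited table of terms held 16 listed genes of 22 in the proteasome regulatory particle and 5 of 18 in the proteasome core complex, all higher. For the broader term of proteasome-mediated ubiquitin-dependent protein catabolism it was 82 of 370, 44 higher and 38 lower. A separate set of terms by the authors held 20 of 135 in ubiquitin mediated proteolysis, 8 higher and 12 lower. That set also held 22 of 44 in the proteasome, all higher.

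Markers of the cell type differed as well. Of 11 macrophage markers 5 were listed, and their summed normalized count ran from 74529 to 84808 in beta-glucan libraries, against 85337 to 158632 in control libraries. Adgre1 (-0.56), Csf1r (-0.68), Mertk (-0.73) and Itgam (-0.50) were lower and Cd14 (0.52) was higher. Of markers of 8 other cell types only the B cell gene Cd79b was listed, at 15.1 ± 6.72 in beta-glucan and 28.1 ± 8.71 normalized counts in control libraries (SD, n = 8 each). The part of these shifts in the proteasome values was not tested, and in bulk RNA fewer cells of a type and less RNA per cell cannot be told apart.

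Whether reads in overlapping exons were shared or discarded was not measured. In GENCODE M21 the exons of 10 members overlap a gene on the opposite strand, among them Psmb7 with Nek6, Psmc3 with Slc39a13 and Psmd13 with Sirt3, and the strand setting of the counting is not given in the sources used here. Exons of 4 members overlap a gene on the same strand, and Psmb5, Psmb6 and Psmb7 have annotated pseudogenes of the same name. Without controls 2 and 3, edgeR called 7 proteasome genes higher in place of 18, and among the enzyme genes 0 higher and 3 lower in place of 5 and 8. In that fit 6.7% of all filtered listed genes were called higher and 16.2% lower.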

How the data were processed

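RNA sequencing of 16 libraries, 8 beta-glucan and 8 control per the labels, was analysed from the deposited comparison table. Reads were handled with CASAVA, STAR 2.5 and HTSeq 0.6.1, with DESeq2 and the build mm10 also named, per the submitters' processing notes. The authors' counts of reads are raw whole numbers. The deposited normalized counts, a signal, are those counts divided by 1 size factor per library. The deposited FPKM values scale them by gene length to 17937135 reads. Log2 fold changes by the authors set beta-glucan over control, and the deposited p-values come unadjusted and adjusted. The authors' enrichment tables give gene counts and p-values per term.

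Each library held 4382665 to 5600727 reads on listed genes, and effective libraries to 15492864 to 20738976 reads. Members and gene lists were chosen with earlier results of these data known. edgeR 4.0.16 in R 4.3.3 (glmQLFit, glmQLFTest, filterByExpr, two-sided) was fitted on all listed genes with the deposited size factors in place of the planned TMM, because the table holds genes already selected, and p was adjusted over 17130 genes. Alternatives were TMM, DESeq2 size factors and test (1.42.0), no filter, the replicate number as a block, left-out libraries, removal of the length trend, pseudocounts of 0.5 and 5 in place of 1, and, chosen after seeing the data, the Usp genes without Usp6nl. The edgeR step was tested on simulated data. Described in full were, per class, the 2 highest and 2 lowest log2 fold changes with a mean normalized count of at least 100, members against their class and Psme2. The values of 2 genes are not reported here. No source ties the libraries to separate mice or cultures, and errors measure only the spread between these samples. Promoter windows came from RefSeq (GRCm38.p6), and coordinates are those of the deposited table. Figures used Python 3.11.15 and matplotlib 3.10.9.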

Additional observations from a re-analysis of the deposited data

Results flagged for a closer look

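In 10 of 102 groups of 8 libraries, counting each member and 5 class scores, a single library stood far from the other 7 of its group. For a single group chance gives about 1 in 20. The groups share the same 16 libraries and are not independent, so no excess over chance is read from the 10. Control 12 was the high library for Psmb5 with 1727 normalized counts, for Psmc5 with 1768 and for Ube2m with 2503. Control 5 was the low library for Psme3 with 1290, and control 9 the high library for Usp46 with 261. Among beta-glucan libraries, replicate 7 was high for Usp10 with 937 and for Usp49 with 83.0. Beta-glucan 6 was high for Ube2k with 1323 normalized counts and beta-glucan 13 for Ube2l6 with 1278. Beta-glucan 5 was low in the 20S class score, at -0.056.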

How the results depend on the processing

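All 46 members kept their direction in each alternative fit. Called proteasome genes numbered 18 higher, 24 with TMM, DESeq2 size factors or the DESeq2 test, 11 with the length trend removed, 7 without controls 2 and 3, and 14 to 22 with single libraries left out. Without controls 12 and 13 they numbered 21. The 12 libraries with shared numbers gave 3 with the replicate block and 0 without it. Same-numbered libraries correlated by -0.18 to 0.46. The main fit used no block, and whether the numbers mark pairs was not settled, since the block gave more calls in those 12 libraries. Called enzyme genes numbered 5 higher and 8 lower. They were 10 and 4 with TMM and with DESeq2 size factors, 10 and 11 with the DESeq2 test, 0 and 3 without controls 2 and 3, 0 and 3 with the replicate block, and 0 and 0 in those 12 libraries without it. Without controls 12 and 13 the enzyme calls were 7 higher and 11 lower. Leaving out single libraries gave 1 to 7 higher and 5 to 11 lower, with 3 or fewer higher without any of beta-glucan 6 to 13 or of controls 2, 3, 5, 7 and 10, and with 5 lower without beta-glucan 8 or 12 or control 5 or 7. At an unadjusted p under 0.05, 40 of the 46 members passed with the block, 37 in those libraries without it and 42 without controls 2 and 3. Among all listed genes 709 were called higher and 1173 lower. The counts were 1037 and 529 with TMM, 1055 and 509 with DESeq2 size factors, 1056 and 1886 with the DESeq2 test, 466 and 990 with the length trend removed, 184 and 445 without controls 2 and 3, 111 and 244 with the replicate block, 24 and 44 without it, and 381 to 871 and 769 to 1405 with single libraries left out. Without controls 12 and 13 these counts over all listed genes were 866 and 1430. TMM and DESeq2 size factors, computed from selected genes that are mostly lower, moved all log2 fold changes up by a median of 0.19 and 0.20. They gave medians of 0.53 and 0.54 for the 19S genes, 0.54 and 0.55 for all proteasome genes and -0.20 and -0.19 for the Usp genes, against 0.35, 0.36 and -0.40. The cause of the other shifts was not tested. Fold changes of low genes such as Usp49, with under 100 normalized counts in most libraries, carry the largest counting error.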
